A study of Homo sapiens with 4 samples.

Results

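The antioxidant genes governed by NRF2 were followed on 4 Affymetrix Human Gene 1.0 ST arrays, 2 from cells transduced with the p53-directed lentiviral shRNA p53si-1 and 2 from cells transduced with a non-targeting lentiviral shRNA (NS). The 10 genes were NFE2L2 (which encodes NRF2), its inhibitor KEAP1, and 8 standard NRF2 targets, namely HMOX1, NQO1, GCLC, GCLM, TXN, TXNRD1, SRXN1 and OSGIN1. They were taken by name as standard members of the pathway, with earlier results of these data known, and all 10 were found among the 18417 genes with 1 row per symbol. All arrays carried RNA of MDA-MB-468, a single established breast cancer cell line that expresses the p53-R273H mutant, so both groups share that mutation and every other feature of the line. Only 1 p53-directed sequence was used, so other effects of that shRNA cannot be told apart from those of p53 depletion. The time between transduction and RNA extraction is not given in the labels. It is stated differently in the methods and the results of the paper.

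NRF2 is a transcription factor that cells keep scarce under resting conditions, because KEAP1, an adaptor of the CUL3 ubiquitin ligase, binds it and sends it to the proteasome. Oxidants and electrophiles modify cysteines of KEAP1, NRF2 then accumulates, pairs with a small MAF protein and binds antioxidant response elements (AREs) of genes that make glutathione, keep thioredoxin reduced, supply NADPH, degrade heme and detoxify quinones. Control of NRF2 acts largely on the protein, so the mRNA of its targets is the usual readout of the pathway on an expression array.

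To show the regulatory sequence beside the signals, RefSeq windows of 300 bases around the transcription starts (250 before and 50 after the start, GRCh38.p14) were searched for the ARE core TGACNNNGC and for the AP-1 site TGACTCA on both strands. The 2 motifs can overlap, as in TGACTCAGC, which no window of these genes held. Windows were given for 9 of the 10 genes, and HMOX1 was not searched. The ARE core was found in 4 of 12 windows, belonging to KEAP1, GCLM and TXNRD1, against 13.3% of all 35116 windows. The AP-1 site was found in 1 of the 12 windows, that of OSGIN1, against 4.95% of all windows. The matches follow in gene direction, with the ARE core or its reverse complement in capitals, to show how the letters differ between these genes.

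KEAP1, position -54 from its second start, chr19:10502807-10502835, minus strand: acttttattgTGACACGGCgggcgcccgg
KEAP1, position -31 from its second start, chr19:10502784-10502812, minus strand: gcccggctctGCTTAGTCAtggtgacctg
GCLM, position -34 from the start, chr1:93909446-93909474, minus strand: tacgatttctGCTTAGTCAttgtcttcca
TXNRD1, position -99 from its first start, chr12:104215670-104215698, plus strand: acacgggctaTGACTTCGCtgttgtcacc
TXNRD1, position -8 from its first start, chr12:104215761-104215789, plus strand: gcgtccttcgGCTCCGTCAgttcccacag
TXNRD1, position -102 from its second start, chr12:104286920-104286948, plus strand: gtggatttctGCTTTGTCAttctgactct

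The windows of OSGIN1 and SRXN1 are shown whole, since these genes lay lowest with p53si-1 in the results that follow. In OSGIN1 the capitals mark the AP-1 site, which begins at position -97 from the start. The SRXN1 window held neither motif. A match is a run of letters and not a measured binding site, and distal elements lie outside these windows.

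OSGIN1, chr16:83952990-83953289, plus strand: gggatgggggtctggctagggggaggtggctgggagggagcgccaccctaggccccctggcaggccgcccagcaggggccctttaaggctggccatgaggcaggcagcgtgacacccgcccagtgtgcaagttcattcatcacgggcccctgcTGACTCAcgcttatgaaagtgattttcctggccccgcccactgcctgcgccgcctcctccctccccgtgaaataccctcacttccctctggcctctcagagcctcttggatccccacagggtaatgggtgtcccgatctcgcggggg
SRXN1, chr20:653151-653450, minus strand: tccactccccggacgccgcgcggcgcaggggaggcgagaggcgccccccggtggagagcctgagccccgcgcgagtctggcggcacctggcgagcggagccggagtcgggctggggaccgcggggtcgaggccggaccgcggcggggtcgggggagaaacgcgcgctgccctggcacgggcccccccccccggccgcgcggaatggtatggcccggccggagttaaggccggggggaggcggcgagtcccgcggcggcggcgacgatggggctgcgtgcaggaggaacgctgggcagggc

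Signals are log2 values, 1 per transcript cluster and array, as the authors summarized them with RMA. The array medians over all clusters lay between 5.66 and 5.69, and the median gene averaged 6.59. Epithelial markers (6 of 7 measured) ran from 9.38 to 12.5 with p53si-1 and from 9.46 to 12.5 with NS shRNA, and markers of leukocytes, endothelium and fibroblasts (10 of 11 measured) ran from 3.01 to 7.22 with p53si-1 and from 3.06 to 7.32 with NS shRNA. Within the epithelial markers the keratin KRT5 was 1.33-fold lower, at 9.85 and 9.80 on the p53si-1 arrays and 10.36 and 10.12 on the NS arrays (log2 difference -0.41, adjusted p = 0.216 from limma), a larger difference than that of any of the 10 genes, and its part in their results was not tested. The leukocyte marker PTPRC lay at 3.14 and 3.01 on the p53si-1 arrays and at 3.12 and 3.06 on the NS arrays. Not all of these markers were dim. The fibroblast marker COL1A1 lay above the median gene, at 7.22 and 7.05 with p53si-1 and 7.25 and 7.32 with NS shRNA. The leukocyte marker CD68 lay near it, at 6.73 and 6.38 with p53si-1 and 6.81 and 6.26 with NS shRNA. The number of arrays limits the precision. With 2 arrays against 2 the smallest two-sided p of an exact permutation test is 0.333, so single genes were tested with limma across all genes. Nothing in the labels says that the 2 arrays of a group came from separate cultures, although a supplementary legend calls the experiments independent, and the p-values measure only the spread between these arrays. In bulk RNA a lower signal from fewer expressing cells cannot be told apart from less RNA per cell.

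On the NS arrays 8 of the 10 genes were among the brighter genes, from GCLM at percentile 86.6 to NQO1 at percentile 97.5. HMOX1 and OSGIN1 were nearer the middle, at percentiles 65.0 and 61.1. Percentiles of different probe sets rank brightness on the array and not the amount of RNA.

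Between p53si-1 and NS cells none of the NRF2 genes passed either criterion of change. None of the 10 was higher or lower by over 1.5-fold, where 0.271% of all genes were higher and 0.652% were lower. None reached an adjusted p under 0.05 by limma with Benjamini-Hochberg adjustment over all genes, as 0.109% of all genes did. At an unadjusted p under 0.05, SRXN1 and OSGIN1 were lower, against 6.80% of all genes, and none was higher, against 5.45%. The 95% limma interval of all 10 genes lay within 1.5-fold in either direction, which was also so for 91.9% of all genes, and without any 1 array it was so for 7 to 9 of the 10. The mean was lower with p53si-1 in 7 of the 10 genes, against 52.6% of all genes. The median log2 difference (p53si-1 minus NS) was -0.02, against -0.01 over all genes. RMA values can compress differences, and these intervals describe the array signal.

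**Figure D1:**
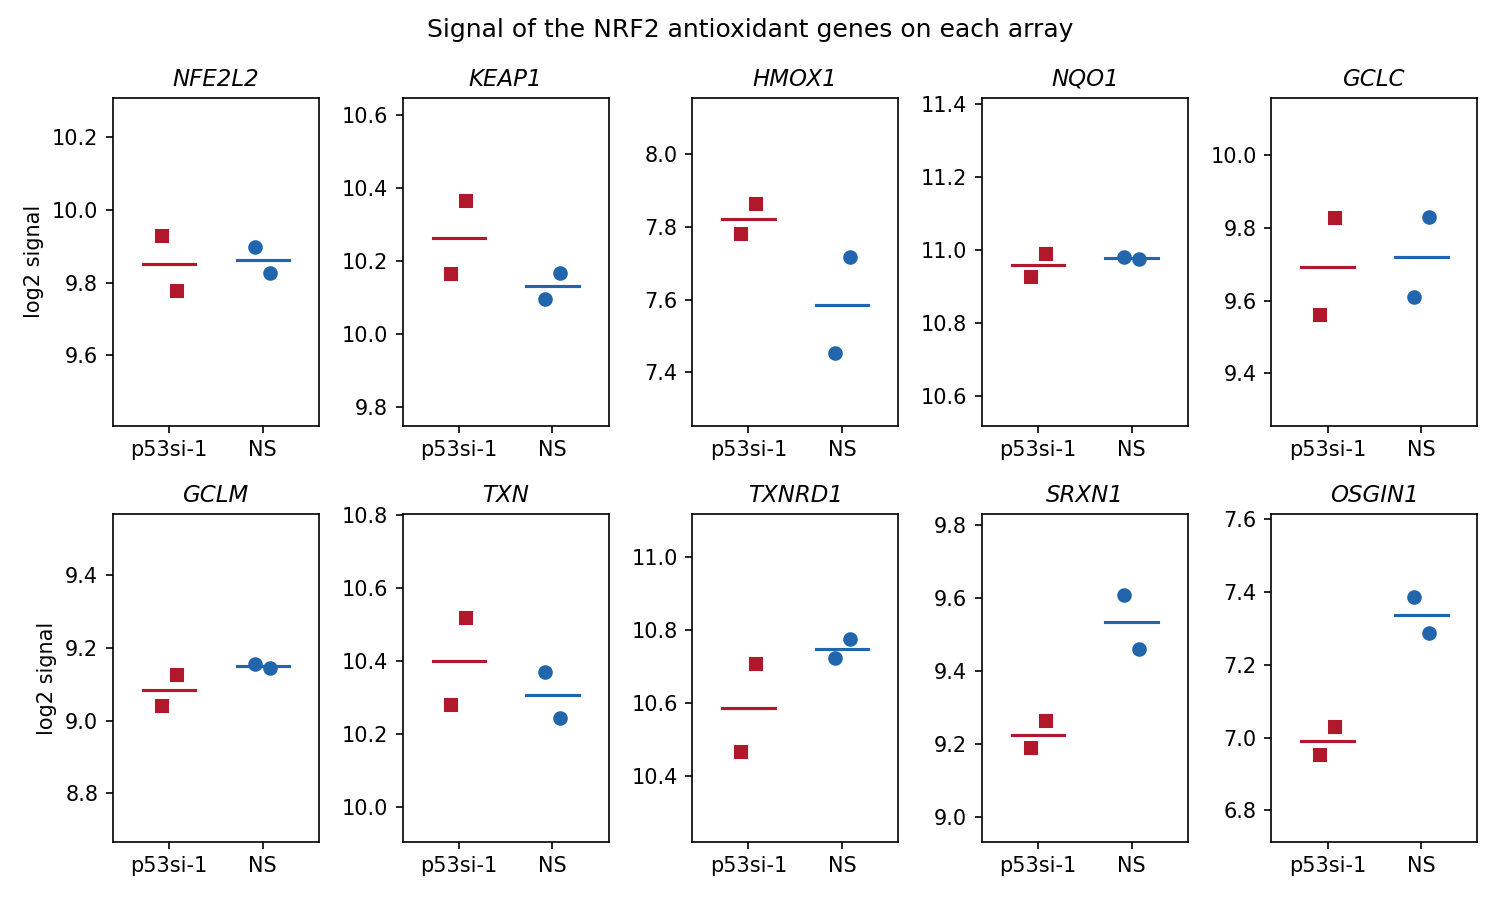
Log2 signal of each gene on each array, with squares for p53si-1, circles for NS and bars for group means; every panel spans 0.9 log2 units. The groups stand furthest apart for SRXN1 and OSGIN1, and NQO1 lies between 10.93 and 10.99 on all 4 arrays.

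The sensor pair gave overlapping groups. NFE2L2, which encodes NRF2, had log2 signals of 9.93 and 9.78 on the p53si-1 arrays and 9.90 and 9.83 on the NS arrays. Its NS values lay between the 2 p53si-1 values, and the log2 difference was -0.01 (95% interval -0.23 to 0.21, adjusted p = 0.979 from limma). KEAP1, the cysteine-bearing sensor that holds NRF2 down, had log2 signals of 10.16 and 10.36 on the p53si-1 arrays and 10.09 and 10.17 on the NS arrays. The second p53si-1 array was the highest, while the first fell within the NS range. Its log2 difference was 0.13 (95% interval -0.11 to 0.37, adjusted p = 0.656 from limma), with 0.23 without p53si-1 replicate 1 and 0.03 without p53si-1 replicate 2.

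HMOX1, the inducible heme oxygenase, had log2 signals of 7.78 and 7.86 on the p53si-1 arrays and 7.45 and 7.72 on the NS arrays. It was the only 1 of the 10 genes with both p53si-1 arrays above both NS arrays, against 19.9% of all genes, and the gap between the groups was 0.06, less than the 0.26 between its 2 NS arrays. The log2 difference of 0.24 (95% interval -0.03 to 0.51, adjusted p = 0.463 from limma) ranked 1098th from the top among all genes. It was 0.10 without NS replicate 1 and 0.37 without NS replicate 2. NQO1, the 2-electron quinone reductase that is a customary marker of NRF2 activity, had log2 signals of 10.93 and 10.99 on the p53si-1 arrays and 10.98 and 10.97 on the NS arrays. The NS arrays fell between the p53si-1 arrays. Its ratio of p53si-1 to NS was 0.987, with a 95% interval of 0.861 to 1.13, the narrowest interval among the 10 genes.

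Glutamate-cysteine ligase, which sets the pace of glutathione synthesis, is made of a catalytic and a modifier subunit. The catalytic subunit GCLC had log2 signals of 9.56 and 9.83 on the p53si-1 arrays and 9.61 and 9.83 on the NS arrays. The 2 replicates of either group differed by more than the groups did, by 0.27 for p53si-1 and 0.22 for NS, against a log2 difference of -0.03 (95% interval -0.33 to 0.28, adjusted p = 0.959 from limma). The modifier subunit GCLM, which carries an ARE core near its start, had log2 signals of 9.04 and 9.13 on the p53si-1 arrays and 9.16 and 9.14 on the NS arrays. Both p53si-1 arrays were lower, by a gap of only 0.02, and the log2 difference was -0.07 (95% interval -0.27 to 0.13, adjusted p = 0.805 from limma), with -0.02 without p53si-1 replicate 1 and -0.11 without p53si-1 replicate 2.

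Of the 3 thioredoxin genes, SRXN1 had the largest difference. TXN, the small disulfide reductase itself, had log2 signals of 10.28 and 10.52 on the p53si-1 arrays and 10.37 and 10.24 on the NS arrays. The groups overlapped, with a log2 difference of 0.09 (95% interval -0.17 to 0.36, adjusted p = 0.795 from limma). TXNRD1, the selenoenzyme that reduces thioredoxin with NADPH, had log2 signals of 10.47 and 10.71 on the p53si-1 arrays and 10.72 and 10.78 on the NS arrays. The p53si-1 arrays were both lower, but the upper one lay only 0.01 below the nearer NS array. The log2 difference was -0.16 (95% interval -0.42 to 0.09, adjusted p = 0.605 from limma). It was -0.04 without p53si-1 replicate 1 and -0.28 without p53si-1 replicate 2.

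SRXN1, sulfiredoxin, which restores peroxiredoxins whose active-site cysteine has been over-oxidized, had log2 signals of 9.19 and 9.26 on the p53si-1 arrays and 9.61 and 9.46 on the NS arrays. The groups were 0.20 apart at their closest, more than the 0.15 between the NS arrays. The means were 9.22 ± 0.05 with p53si-1 and 9.54 ± 0.11 with NS shRNA (SD, n = 2 arrays each). SRXN1 was thus 1.24-fold lower, a log2 difference of -0.31 (95% interval -0.53 to -0.09, unadjusted p = 0.0143 and adjusted p = 0.271 from limma), and ranked 759th from the bottom of all genes.

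OSGIN1, a growth inhibitor induced by oxidative stress, had log2 signals of 6.95 and 7.03 on the p53si-1 arrays and 7.39 and 7.29 on the NS arrays. The gap of 0.26 between the groups was the widest among the 10 genes and more than the distance between arrays of either group, 0.08 for p53si-1 and 0.10 for NS. The means were 6.99 ± 0.06 with p53si-1 and 7.34 ± 0.07 with NS shRNA (SD, n = 2 arrays each). OSGIN1 was 1.27-fold lower, a log2 difference of -0.35 (95% interval -0.56 to -0.14, unadjusted p = 0.00675 and adjusted p = 0.205 from limma), and ranked 589th from the bottom. Its difference ran from -0.40 to -0.30 over the alternatives tried, and that of SRXN1 from -0.38 to -0.24. Neither passed an adjusted p of 0.05 by limma in any fit of all 4 arrays. Leaving out 1 array could not reverse the sign for either gene, since their groups did not overlap. GCLM, TXNRD1, SRXN1 and OSGIN1 were the 4 genes with both p53si-1 arrays below both NS arrays, against 22.6% of all genes.

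**Figure D2:**
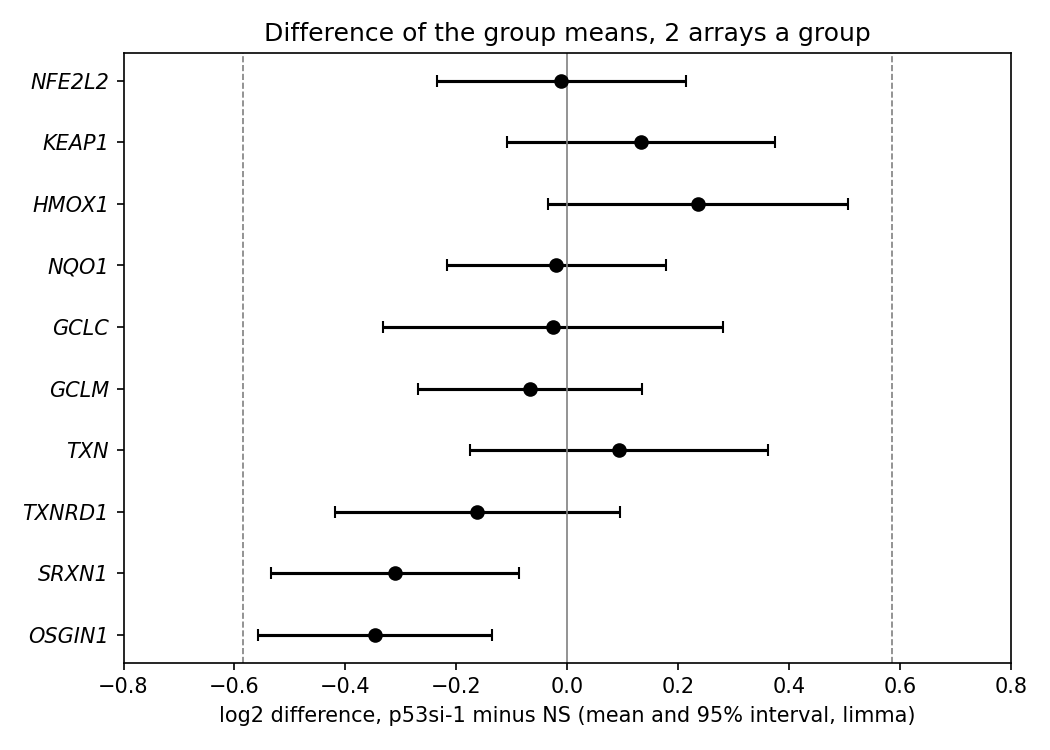
Log2 difference of the group means (p53si-1 minus NS) with the 95% limma interval for each gene; dashed lines mark 1.5-fold. The intervals of SRXN1 and OSGIN1 exclude 0, those of the other 8 include it, and none reaches 1.5-fold.

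The 2 arrays of a group also differed from each other. The median size of the replicate difference over the 10 genes was 0.12 for p53si-1 and 0.09 for NS, against 0.11 and 0.10 over all genes. The median size of the group difference was 0.11, against 0.09 over all genes. A group difference is taken between means of 2 arrays and a replicate difference between single arrays, so their sizes are not directly comparable. The second p53si-1 array was the higher one in 9 of the 10 genes, all but NFE2L2, whereas over all genes it was higher in 45.8%. On the NS arrays the second replicate was higher in 4 of the 10. Without p53si-1 replicate 2 the median log2 difference of the 10 genes was -0.08.

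**Figure D3:**
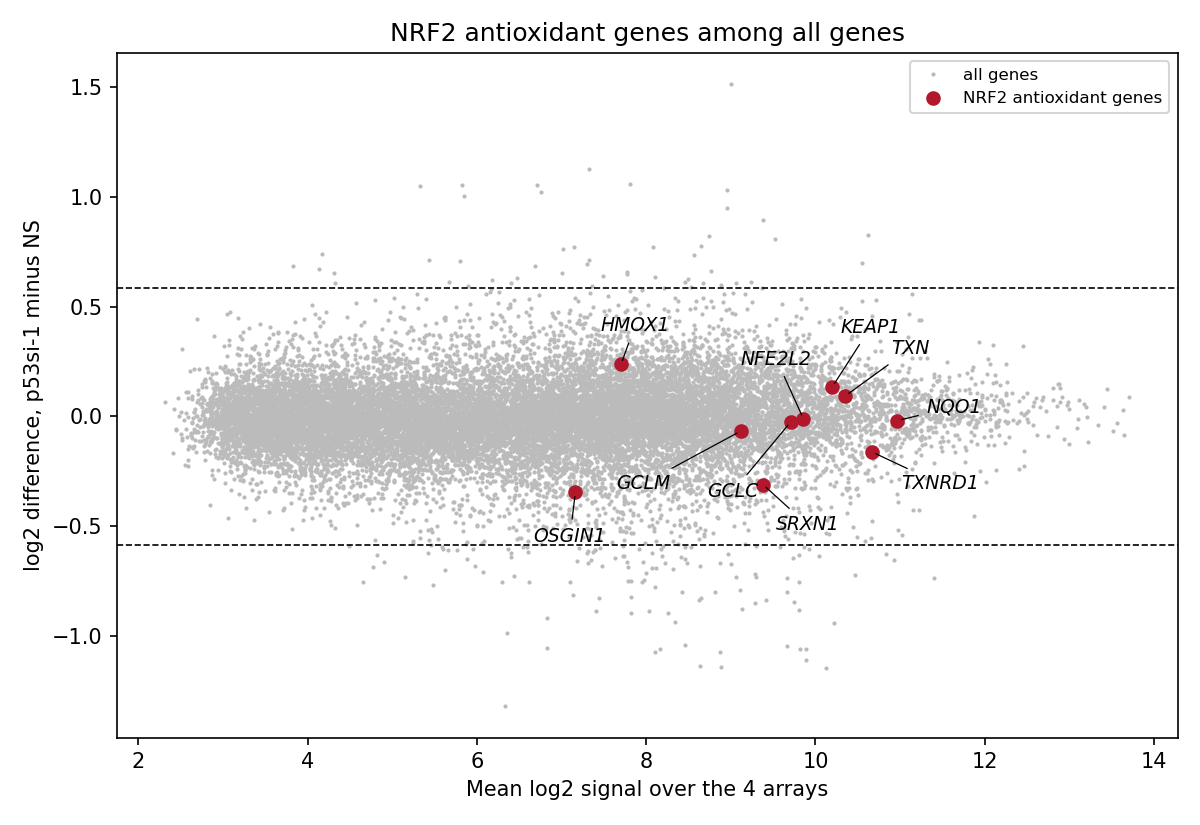
Log2 difference (p53si-1 minus NS) of each of 18417 genes against its mean log2 signal over the 4 arrays, with the 10 NRF2 genes in red and dashed lines at 1.5-fold. The NRF2 genes lie inside the main body of points, with HMOX1 the highest of them at 0.24 and OSGIN1 the lowest at -0.35.

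Other genes around the pathway were described in 8 lists by function. They cover control of NRF2 and general redox, iron and drug metabolism, and not all of them are NRF2 targets. Of 97 genes, 87 were measured and 10 are not analysed here. None passed an adjusted p of 0.05 by limma, 2 were higher and 8 lower at an unadjusted p under 0.05 (5.45% and 6.80% of all genes), and 1, SLC7A11, was lower by over 1.5-fold (0.652% of all genes). Both p53si-1 arrays lay above both NS arrays in 13 and below them in 19, or 36.8% together against 42.5% of all genes. The median log2 difference was -0.02.

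Regulators and partners of NRF2 (14 of 15 measured) had a median log2 difference of 0.02. MAFG, a small MAF protein that pairs with NRF2, had log2 signals of 8.33 and 8.67 on the p53si-1 arrays and 7.89 and 8.16 on the NS arrays. Both p53si-1 arrays were higher, with a log2 difference of 0.48 (95% interval 0.13 to 0.83, adjusted p = 0.279 from limma) that was 0.31 without p53si-1 replicate 2 and 0.21 as the mean of all MAFG clusters. The array holds 2 further, dimmer clusters of MAFG, and they did not repeat this size. One gave 7.57 and 7.63 on the p53si-1 arrays and 7.33 and 7.54 on the NS arrays, a log2 difference of 0.17. The other gave 7.23 and 7.10 on the p53si-1 arrays and 7.16 and 7.21 on the NS arrays, a log2 difference of -0.02 with overlapping groups. DPP3, a peptidase that binds KEAP1, was at 0.16, the kinase GSK3B at -0.12 and the repressor BACH1 at -0.10 on the log2 difference scale. Their adjusted p-values from limma were 0.573, 0.663 and 0.714. They were named because their groups did not overlap, which held for 7 of the 14 genes, against 42.5% of all genes. DPP3 was at 0.07 without NS replicate 2, GSK3B at -0.04 without p53si-1 replicate 1 and BACH1 at -0.05 without NS replicate 1.

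Genes of glutathione synthesis and use (16 of 18 measured) had a median log2 difference of -0.01. SLC7A11, the cystine-importing subunit of the antiporter that feeds glutathione synthesis, had log2 signals of 7.35 and 7.88 on the p53si-1 arrays and 8.08 and 8.37 on the NS arrays. Its log2 difference of -0.61 (95% interval -1.06 to -0.15, adjusted p = 0.289 from limma) was beyond 1.5-fold and became -0.34 without p53si-1 replicate 1 and -0.46 without NS replicate 2. The groups of its partner subunit SLC3A2 overlapped. GPX8, an endoplasmic reticulum peroxidase, was at -0.30, GGCT at 0.12 and OPLAH at 0.12 on the log2 difference scale, both of the last enzymes of glutathione turnover. GGCT was at 0.04 without p53si-1 replicate 1 and OPLAH at 0.07 without NS replicate 2.

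Thioredoxin and peroxiredoxin genes (11 of 13 measured) had a median log2 difference of 0.02. Both p53si-1 arrays lay above both NS arrays in 3 of the 11 and below them in 0, against 19.9% and 22.6% of all genes. The mitochondrial thioredoxin TXN2 was at 0.14, the abundant cytosolic peroxiredoxin PRDX1 at 0.11 and the mitochondrial peroxiredoxin PRDX3 at 0.08, and TXN2 was at 0.06 without NS replicate 2. PRDX1 had log2 signals of 11.85 and 11.92 on the p53si-1 arrays and 11.79 and 11.76 on the NS arrays. Peroxiredoxins are the substrates of SRXN1.

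Genes that remove superoxide and peroxide (5 of 5 measured) had a median of -0.03. Among them SOD2, the mitochondrial superoxide dismutase, had log2 signals of 9.90 and 10.04 on the p53si-1 arrays and 10.26 and 10.51 on the NS arrays, without overlap (log2 difference -0.41, 95% interval -0.69 to -0.13, adjusted p = 0.244 from limma). NADPH-supplying enzymes (8 of 9 measured) had a median of -0.06, with TALDO1 of the pentose phosphate pathway at -0.18 and the mitochondrial folate enzyme MTHFD2 at 0.16 (0.28 in its other cluster, and 0.09 without p53si-1 replicate 2).

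Heme and iron genes (9 of 10 measured) had a median of -0.07. FTL, the ferritin light chain that stores iron, had log2 signals of 9.33 and 9.60 on the p53si-1 arrays and 9.13 and 9.03 on the NS arrays, the second highest difference among the listed genes after MAFG (log2 difference 0.39, 95% interval 0.11 to 0.66, adjusted p = 0.265 from limma). It was 0.25 without p53si-1 replicate 2. Ferritin has many processed copies in the genome, and its signal is uncertain where probes match them. The iron exporter SLC40A1, dim at 4.58 and 4.45 on the p53si-1 arrays and 4.78 and 4.79 on the NS arrays, was at -0.27, the transporter ABCB6 at -0.22 and the ferritin receptor NCOA4 at 0.08.

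Drug-detoxifying enzymes (18 of 21 measured) had a median log2 difference of -0.0029, with the mean higher in 9 and lower in 9. Both p53si-1 arrays lay above both NS arrays in 2 of the 18 enzymes and below them in 5, against 19.9% and 22.6% of all genes. The enzymes named here had the largest differences among those without overlap, and all were lower. GSTM3, a mu-class glutathione transferase, had log2 signals of 8.16 and 8.13 on the p53si-1 arrays and 8.69 and 8.59 on the NS arrays. The groups were far apart relative to their replicates, with a log2 difference of -0.49 (95% interval -0.70 to -0.29) and the lowest adjusted p of all the listed genes, 0.101 from limma. Its relative GSTM2 was at -0.22 and dim, and near-identical sequence within this family can mix the probes' signals. The quinone reductase NQO2 had log2 signals of 8.86 and 8.90 on the p53si-1 arrays and 9.15 and 9.18 on the NS arrays, a log2 difference of -0.29 (adjusted p = 0.244 from limma). GSTP1 was at -0.21, and at -0.14 without p53si-1 replicate 2. Drug efflux pumps (6 of 6 measured) had a median of -0.08, with ABCC4 at -0.33 (-0.21 without NS replicate 2) and ABCC1 at -0.23.

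**Figure D4:**
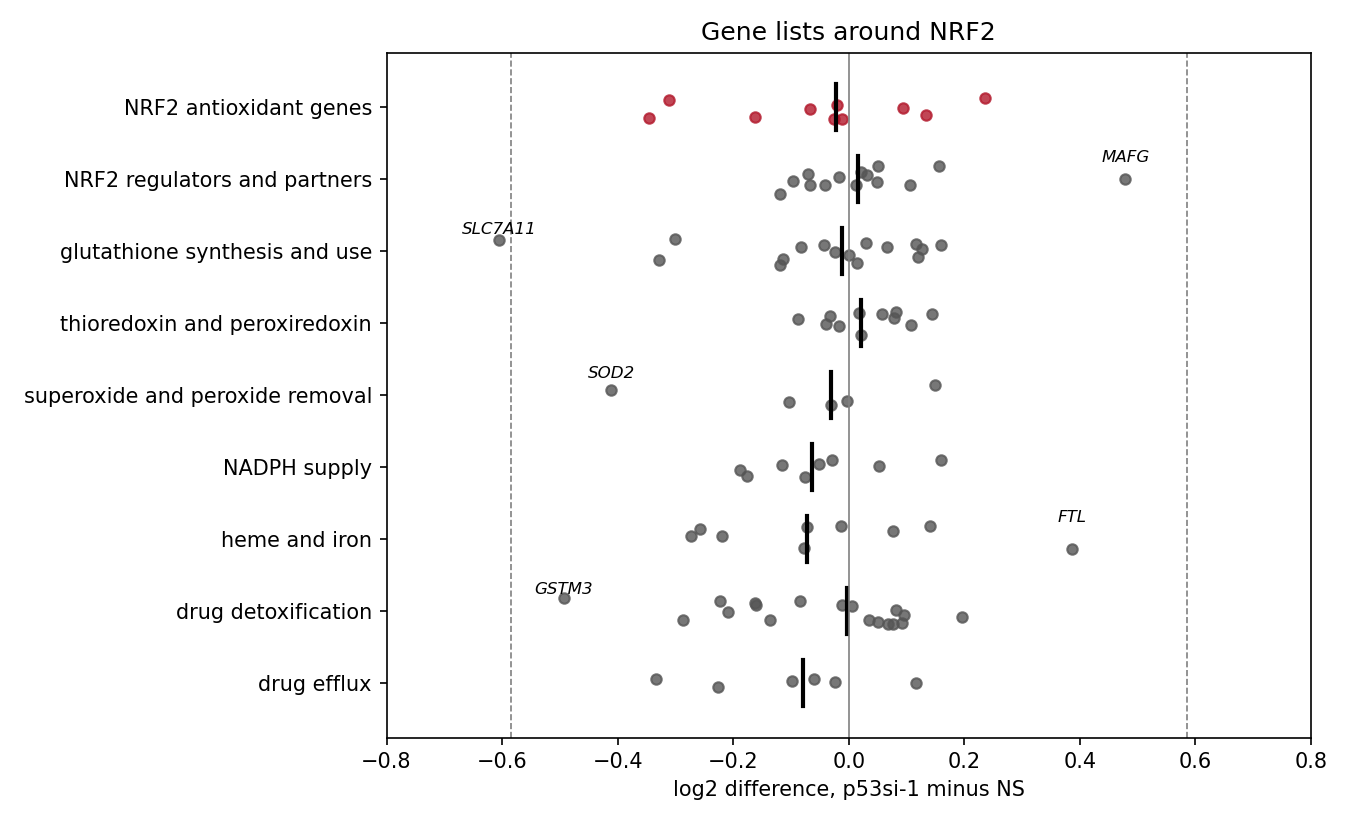
Log2 difference (p53si-1 minus NS) of the 10 NRF2 genes (red) and of the measured genes of 8 lists around the pathway (grey), with black bars for list medians and dashed lines at 1.5-fold. Medians run from -0.08 for drug efflux to 0.02 for thioredoxin and peroxiredoxin genes, and SLC7A11 is the only point beyond 1.5-fold.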

How the data were processed

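RNA of MDA-MB-468 cells was hybridized to 4 arrays, 2 with p53si-1 and 2 with NS shRNA. The authors deposited log2 values, 1 for each transcript cluster on each array. GCOS, RMA and the Affymetrix Expression Console are the tools in the submitters' processing notes. The scale was judged from the range (1.75 to 14.3), and the settings of RMA are unknown. RMA equalizes the arrays, so a shift of most transcripts would be removed.

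Of 33297 clusters, 19460 name 1 gene symbol, 1754 several and 12083 none, from the platform annotation. Each of 18417 genes took its cluster with the highest mean, and no filter was applied. Each of the 10 genes has 1 cluster. Groups were compared in R 4.3.3 by the moderated test of limma 3.58.1, with 4.2 prior and 2 residual degrees of freedom, and p-values were adjusted over all genes by Benjamini-Hochberg. The steps were tested on simulated data. The level of the shRNA's target is not reported here. The genes and lists were chosen with earlier results of these data known. Named from each list were up to 4 genes with the largest difference among those without overlap, plus any beyond 1.5-fold. The alternatives changed the cluster choice, the dim-gene filter, the normalization, the prior variance, the block and the arrays used. Promoter sequences are RefSeq's.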

Additional observations from a re-analysis of the deposited data

How the results depend on the processing

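No member of the 10 passed an adjusted p of 0.05 by limma in any fit of all 4 arrays, or a difference of 1.5-fold under any alternative. With a criterion of 1.2-fold 2 were lower, SRXN1 and OSGIN1, against 5.97% of all genes. At that criterion 0 were higher, against 4.63% of all genes. Of 120 recomputed differences of the 10 genes, 113 kept their sign. Changes to the cluster choice, the dim-gene filter, the prior variance or the block did not move these differences. Only the normalizations and the runs without 1 array could therefore alter a sign. The runs without 1 array could not do so for HMOX1, GCLM, TXNRD1, SRXN1 and OSGIN1, whose groups did not overlap. Many of the 113 were thus fixed in advance. NFE2L2 was at 0.0011 after median centring. Without 1 array its difference ran from -0.087 to 0.065, that of NQO1 from -0.0518 to 0.0130, that of GCLC from -0.160 to 0.108 and that of TXN from -0.026 to 0.213, and the median of the 10 genes from -0.0809 to -0.0057. In the main comparison both p53si-1 arrays lay above both NS arrays in 1 of the 10 genes and below them in 4. The shares of all genes were 19.9% and 22.6%. After median centring the counts were 2 and 3, and after quantile normalization 1 and 5. The shares of all genes under these 2 normalizations were not computed. The number of all genes at an adjusted p under 0.05, 20 in the main comparison, was 0 over every transcript cluster, 89 without genes of mean log2 signal under 4.72, 62 after median centring, 149 with a trend in the prior variance, 4 with a robust prior, 12 with the replicate block and 0 or 1 without any 1 array. The causes were not tested. Same-numbered arrays deviated together across genes (correlation 0.242), but no source says that the numbers mark a shared culture. With the replicate block 0 of the 10 genes passed.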
